A study of Homo sapiens with 9 samples.

Results

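Genes of 43 proteins that hepatocytes secrete into blood plasma were followed in PLC/PRF/5, a human hepatoma cell line: 22 carriers and protease inhibitors, 13 clotting factors and their regulators, and 8 complement proteins. They were taken by gene symbol from the 58219 gene identifiers in the count files. The rule uses no measured value, but the list was chosen with earlier results of these data known. The low-count filter kept 34 of the 43 for testing, 16 carriers and inhibitors, 12 clotting genes and 6 complement genes. Cells stably expressed the tyrosine kinase YES, encoded by YES1, with the gatekeeper mutation T348I (5 samples) or as the wild type (WT, 4 samples). All 9 samples had been treated with 100 nM dasatinib, a drug that blocks kinases of the Src family and ABL, and untreated cells were not analysed here. A gatekeeper residue lies at the back of a kinase's ATP pocket, and its substitution is a known route to resistance against inhibitors of this kind, so the design sets cells with a YES predicted to stay active under the drug against cells with an inhibitable YES. The labels do not say which promoter drives YES, or whether each line is a single clone.

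Sample titles spell the drug as dasatinib (3 T348I and 3 WT samples) or as Dasa (2 T348I samples and 1 WT sample), and the labels do not say whether the spelling marks a batch. Each spelling defines a name set, which entered the model as a term, and results are given for each set too. Since the labels do not state that replicates were separate cultures, a p-value here reflects the scatter among these samples alone, possibly only technical scatter. Expression is given as CPM, reads scaled to a common depth with library sizes adjusted by the TMM method of edgeR, and a fold is the log2 ratio of T348I over WT at the same set. A gene was called at an adjusted p under 0.05. In lists of values the replicates of the dasatinib set (1, 2, 3) come before those of the Dasa set (1 and 2 for T348I, 1 for WT).

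Over both sets, clotting and carrier genes were mostly lower in T348I than in WT samples, and complement genes were not. Within the dasatinib set, though, 5 of the 16 tested carriers and inhibitors were called higher and 5 lower. Of the 34 tested genes, 18 were called lower, where 20.7% of all genes tested were called lower, and 5 were called higher, where 20.0% of all genes were. Among carriers and inhibitors 9 of 16 were called lower and 1 higher, with a median log2 fold of -0.41. The 9, and the 5 lower within the dasatinib set, include GC and HRG, which passed the low-count filter only through their WT samples. Among clotting genes 9 of 12 were called lower and 1 higher, with a median of -0.81. Among complement genes none of 6 was called lower and 3 were called higher, with a median of 0.20. The median of all genes tested was -0.01. No complement gene was lower at an unadjusted p under 0.05 either, or by DESeq2, which called 15 of the 34 lower and 4 higher and lost SERPINA5, SERPING1, FGB and C1R. At a minimum of 1.5-fold, 15 of the 34 were called lower, 8 carriers and inhibitors and 7 clotting genes, where 4.49% of all genes were. None was called higher at that size, where 5.20% of all genes were. Without WT Dasa replicate 1 the counts were 11 lower, 5 of them carriers and inhibitors, and 10 higher, and without the set term in the model they were 9 lower and 1 higher.

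Most plasma proteins are made by hepatocytes, which secrete them through the endoplasmic reticulum and Golgi. Clotting proceeds by a cascade of serine proteases: factor XII and factor XI of the contact pathway, or factor VII with tissue factor, lead to factor X, which converts prothrombin to thrombin, and thrombin turns fibrinogen into fibrin. Complement runs on a parallel cascade in which C1r and C1s, factor B and C3 convertases lead to cleavage of C3 and C5. Transcription of these genes in liver depends on factors such as HNF4A, the C/EBP family and, in the acute phase response to interleukin-6, STAT3.

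Promoter windows show how these genes are built upstream of their start. RefSeq windows on GRCh38.p14, from 250 bases before to 50 bases after the annotated start, matched 34 of the 43 genes. They were searched on both strands for TTGCNNAA (C/EBP), CAAAGTCCA (HNF4) and TTCNNNGAA (STAT). The windows below, 5′ to 3′ on the gene's strand with matches in capitals, are of 6 genes described further on: 2 fibrinogen chains that differed in their call, 3 of the genes called lower by about 2-fold, and albumin. In the FGA window (chr4:154590693-154590992, minus strand) the capitals mark, in order, a STAT and a C/EBP match. In the FGB window (chr4:154562730-154563029, plus strand, the nearer to the gene start of 2 in the table) they mark a C/EBP match. In the F10 window (chr13:113122549-113122848, plus strand) they mark a STAT and an HNF4 match, and in the SERPINA6 window (chr14:94323287-94323586, minus strand) a STAT match. In the AHSG window (chr3:186612810-186613109, plus strand) they mark an HNF4 and a C/EBP match, and in the ALB window (chr4:73404037-73404336, plus strand) a C/EBP match.
FGA: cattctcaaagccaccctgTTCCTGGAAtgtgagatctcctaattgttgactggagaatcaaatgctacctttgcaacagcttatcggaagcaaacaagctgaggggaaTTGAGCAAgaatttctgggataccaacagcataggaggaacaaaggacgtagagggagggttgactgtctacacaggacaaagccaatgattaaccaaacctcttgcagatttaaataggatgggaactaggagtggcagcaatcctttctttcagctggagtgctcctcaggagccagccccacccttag
FGB: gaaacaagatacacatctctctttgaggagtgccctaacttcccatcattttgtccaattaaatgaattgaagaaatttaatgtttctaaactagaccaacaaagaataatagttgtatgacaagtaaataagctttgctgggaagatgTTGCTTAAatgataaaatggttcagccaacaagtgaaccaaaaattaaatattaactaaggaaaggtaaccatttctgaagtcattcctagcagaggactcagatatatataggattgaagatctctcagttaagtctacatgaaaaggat
F10: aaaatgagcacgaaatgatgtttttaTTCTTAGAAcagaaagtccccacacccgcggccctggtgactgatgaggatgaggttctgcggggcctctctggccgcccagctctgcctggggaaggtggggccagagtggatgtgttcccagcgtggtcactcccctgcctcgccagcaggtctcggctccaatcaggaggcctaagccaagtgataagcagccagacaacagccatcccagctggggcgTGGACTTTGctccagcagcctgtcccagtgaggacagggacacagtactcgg
SERPINA6: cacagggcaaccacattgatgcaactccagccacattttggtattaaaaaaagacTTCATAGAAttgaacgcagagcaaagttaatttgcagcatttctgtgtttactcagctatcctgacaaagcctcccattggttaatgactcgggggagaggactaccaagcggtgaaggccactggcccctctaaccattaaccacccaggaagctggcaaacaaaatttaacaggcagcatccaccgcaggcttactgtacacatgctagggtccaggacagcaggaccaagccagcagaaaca
AHSG: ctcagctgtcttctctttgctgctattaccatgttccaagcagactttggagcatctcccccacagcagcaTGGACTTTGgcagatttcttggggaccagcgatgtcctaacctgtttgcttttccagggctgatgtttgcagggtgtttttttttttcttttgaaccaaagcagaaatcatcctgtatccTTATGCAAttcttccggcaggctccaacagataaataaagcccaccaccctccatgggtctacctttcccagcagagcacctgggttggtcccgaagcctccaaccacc
ALB: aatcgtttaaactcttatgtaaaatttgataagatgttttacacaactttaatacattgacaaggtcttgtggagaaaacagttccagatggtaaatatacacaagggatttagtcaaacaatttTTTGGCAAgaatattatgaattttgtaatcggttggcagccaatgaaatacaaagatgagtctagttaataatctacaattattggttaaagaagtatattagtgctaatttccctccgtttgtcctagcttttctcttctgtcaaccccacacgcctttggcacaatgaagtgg
The annotated start in the ALB window lies 7173 bases from the gene start in GENCODE release 29, so it belongs to another annotated start of the gene.

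Genes were counted once, with a match in any of their windows. TTGCNNAA was found in 10 of the 34 genes with a window (29.4%), and in 12.7% of all 27305 such genes, and TTCNNNGAA in 13 of 34 (38.2%), against 9.38%. CAAAGTCCA was found in 2 genes (5.88%), AHSG and F10, against 0.472% of all genes. Of the genes with a window, TTGCNNAA was in 5 of 16 called lower and in 4 of 11 tested but not called lower. TTCNNNGAA was in 3 of 16 and 7 of 11. Both genes with CAAAGTCCA were called lower. These are matches of letters, not shown to be bound here.

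Depth was 10381142 to 15799059 gene reads in T348I samples and 10464731 to 14118614 in WT samples, so a gene at 1 CPM rested on about 10 to 16 reads a sample. YES1 had 606, 583, 555, 967 and 1026 CPM in T348I samples, against 363, 346, 342 and 366 CPM in WT samples. T348I samples were higher than every WT sample, those of the Dasa set most, and counts per gene do not show the mutation itself. The mitochondrial share of gene reads was 15.2% to 17.0% in the Dasa set and 7.38% to 9.44% in the dasatinib set, and its part in any difference between the sets was not tested. Of 16 hepatocyte markers, 11 reached 1 CPM in every sample, so defining liver markers were present, while CYP3A4, CYP2E1 and TDO2 stayed below it in all samples and APOC3 and TAT in some. These markers, none of them among the 43 genes, summed to 5826 to 6750 CPM in T348I and 6335 to 9884 CPM in WT samples. Of the 13 tested, 11 were called lower, where 20.7% of all genes were, and the part of these markers in the results was not tested. Markers of fibroblasts and stellate cells summed to 4.84 to 10.3 CPM in T348I and 3.71 to 8.88 CPM in WT samples, those of endothelium to 1.81 to 3.92 CPM in T348I and 1.37 to 3.54 CPM in WT samples. Leukocyte markers summed to 799.6 to 1410.2 CPM in T348I and 953 to 1260.1 CPM in WT samples, nearly all of it LYZ, at 798 to 1408 CPM in T348I and 953 to 1259.7 CPM in WT samples. Without LYZ the sums were 1.64 to 2.18 CPM in T348I and 0.366 to 0.543 CPM in WT samples, with CD79A at 88 reads in T348I and 4 in WT samples, and their part in the results was not tested. The sum of erythroid markers was at most 1.25 CPM. In bulk RNA, fewer cells that make a transcript and less of it per cell cannot be told apart.

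Per length of transcript, fibrinogen led the set. FGA stood at 577 CPM per kb in T348I samples and 599 CPM per kb in WT samples, FGB at 526 CPM per kb in T348I samples and 625 CPM per kb in WT samples and FGG at 402 CPM per kb in T348I samples and 487 CPM per kb in WT samples. AMBP, SERPINA1, RBP4, VTN and C3 followed, with AMBP at 273 CPM per kb in T348I samples and 455 CPM per kb in WT samples and C3 at 118 CPM per kb in T348I samples and 90.7 CPM per kb in WT samples. Albumin, the main protein of plasma, was low in this line: ALB stood at 0.738 CPM per kb in T348I samples and 1.17 CPM per kb in WT samples, rank 24 among the members.

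**Figure D1:**
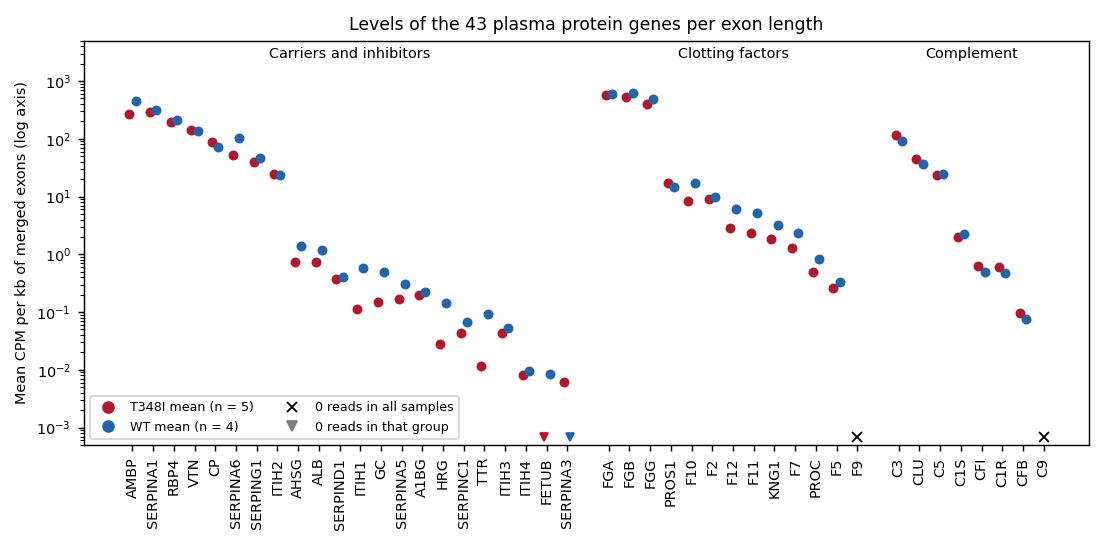
Level of each member in CPM per kb of merged exons (log axis), mean of the T348I samples and mean of the WT samples, grouped into carriers and inhibitors, clotting and complement genes. The 3 fibrinogen genes stand highest, at 402 to 577 CPM per kb in T348I and 487 to 625 CPM per kb in WT samples, and ALB stands at 0.738 and 1.17 CPM per kb.

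Among the abundant carriers and inhibitors, AMBP and SERPINA6 fell and CP rose. AMBP encodes the precursor of alpha-1-microglobulin, a heme-binding lipocalin, and bikunin, a protease inhibitor (chr9:114060127-114078472, minus strand, where this and the gene positions that follow are those of GENCODE release 29 on GRCh38). AMBP had 670.1, 686, 706, 347 and 372 CPM in T348I samples, against 942, 1029, 993 and 748 CPM in WT samples. Every T348I sample lay below every WT sample, and the lowest were the T348I samples of the Dasa set. AMBP fell, with a log2 fold of -0.69 ± 0.0675 (SE, edgeR adjusted p = 8.04e-08). SERPINA6 encodes corticosteroid-binding globulin, the carrier of cortisol (chr14:94304248-94323394, minus strand, with the promoter printed above). SERPINA6 had 119, 126, 136, 54.1 and 57.7 CPM in T348I samples, against 197, 217, 202 and 163 CPM in WT samples. The groups did not overlap, and the fold was -0.94 ± 0.0973 (SE, edgeR adjusted p = 1.87e-07). CP encodes ceruloplasmin, the copper-carrying ferroxidase of plasma (chr3:149162410-149222055, minus strand). CP had 759, 725, 717, 482 and 527 CPM in T348I samples, against 534, 544, 534 and 457 CPM in WT samples. All 3 T348I samples of the dasatinib set lay above all WT samples, while those of the Dasa set lay among the WT values, and CP rose, with a fold of 0.35 ± 0.0496 (SE, edgeR adjusted p = 8.97e-06).

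SERPINA1, RBP4, VTN and ITIH2 did not pass the test over both sets, and SERPING1 passed narrowly. SERPINA1 encodes alpha-1-antitrypsin, the main inhibitor of neutrophil elastase (chr14:94376747-94390693, minus strand). It had 1732, 1571, 1696, 1091 and 1144 CPM in T348I samples, against 1497, 1597, 1495 and 1571 CPM in WT samples. The groups overlapped, and the sets went opposite ways: in the dasatinib set T348I was mostly above WT and in the Dasa set below it. Over both sets the fold was -0.07 ± 0.0765 (SE, edgeR adjusted p = 0.493). RBP4, the carrier of retinol, had 319.9, 299.9, 313, 229 and 242 CPM in T348I samples, against 283, 295, 289 and 341 CPM in WT samples, with the same crossing. Its fold over both sets was -0.10 ± 0.0756 (SE, edgeR adjusted p = 0.326). VTN, the adhesive protein vitronectin, had 359, 372, 387, 280.4 and 307 CPM in T348I samples, against 329, 358, 324 and 309.7 CPM in WT samples. In the dasatinib set T348I lay above WT, by very little for the nearest values, and in the Dasa set slightly below it. ITIH2, a heavy chain that bikunin is linked to, ranged over 60.8 to 98.6 CPM in T348I samples, against 64.8 to 88.8 CPM in WT samples. Their folds were 0.08 and 0.10, with edgeR adjusted p of 0.203 and 0.0966. SERPING1 encodes the C1 inhibitor, which blocks C1r, C1s and the contact proteases. SERPING1 had 176, 169, 179, 94.3 and 105 CPM in T348I samples, against 176, 175, 181 and 150.1 CPM in WT samples. In the dasatinib set the groups were alike in range, and in the Dasa set T348I was lower. Its fold was -0.19 ± 0.0697 (SE, edgeR adjusted p = 0.0334), and without WT Dasa replicate 1 it was -0.0168 and not called. Without T348I Dasa replicate 1 or 2 it was not called either, at -0.13 and -0.17.

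Of the 8 tested carriers under 5 CPM, 6 fell, on few reads. AHSG encodes fetuin-A, an inhibitor of mineral deposition (chr3:186612923-186621318, plus strand). It had 2.89, 1.8, 1.9, 1.02 and 1.13 CPM in T348I samples, against 2.47, 2.66, 3.06 and 4.97 CPM in WT samples. T348I dasatinib replicate 1 lay above 2 of the WT samples, so the groups overlapped. AHSG fell, with a fold of -0.97 ± 0.266 (SE, edgeR adjusted p = 0.00611), but without WT Dasa replicate 1 the fold was -0.35 and not called. ALB (chr4:73397114-73421412, plus strand) had 3.37, 2.32, 3.28, 1.15 and 2.33 CPM in T348I samples, against 3.64, 4.67, 3.73 and 3.76 CPM in WT samples, with every T348I sample below every WT sample. ALB fell, with a fold of -0.64 ± 0.197 (SE, edgeR adjusted p = 0.0136), and without WT Dasa replicate 1 or without T348I dasatinib replicate 2 the call was lost, at -0.43 and -0.55. ITIH1, another bikunin-linked heavy chain (chr3:52777592-52792068, plus strand), had 0.771, 0.451, 1.12, 0 and 0.226 CPM in T348I samples, against 2.47, 2.84, 2.38 and 2.78 CPM in WT samples. The groups lay well apart, and ITIH1 fell, with a fold of -2.37 ± 0.363 (SE, edgeR adjusted p = 2.63e-05). In the Dasa set this rests on 3 reads in T348I and 37 in WT samples, a CPM ratio of 0.0384 (95% exact interval 0.00758 to 0.121, counting error only).

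GC, the vitamin D-binding protein (chr4:71741693-71804041, minus strand), had 0.385, 0.322, 0.518, 0.271 and 0.301 CPM in T348I samples, against 1.03, 1.1, 0.883 and 1.66 CPM in WT samples. All T348I samples were below all WT samples, and GC fell, with a fold of -1.76 ± 0.324 (SE, edgeR adjusted p = 0.000196). HRG, histidine-rich glycoprotein, had 0.385, 0.0644, 0.173, 0 and 0.0753 CPM in T348I samples, against 0.412, 0.824, 0.815 and 0.903 CPM in WT samples. The highest T348I value lay under the lowest WT value by a small margin, and HRG fell, with a fold of -2.48 ± 0.542 (SE, edgeR adjusted p = 0.00101). Its Dasa values are 1 read in T348I and 12 in WT samples, a CPM ratio of 0.0395 (95% exact interval 0.000923 to 0.267). SERPINA5, the protein C inhibitor, had 0.771, 0.708, 0.863, 0.271 and 0.527 CPM in T348I samples, against 1.3, 1.56, 1.22 and 0.602 CPM in WT samples. The WT Dasa sample lay among the T348I values. The fold was -0.75 ± 0.273 (SE, edgeR adjusted p = 0.0332), and the call was lost, at -0.68 to -0.78, without any 1 of T348I dasatinib replicates 1 and 2, T348I Dasa replicate 1, WT dasatinib replicates 1 and 2 and WT Dasa replicate 1. SERPIND1 (heparin cofactor II) and A1BG, both near 1 CPM, did not pass, with folds of -0.10 and -0.11 and edgeR adjusted p of 0.84 and 0.812. In all, 6 of the 16 carriers and inhibitors had every T348I sample below every WT sample, where 8.80% of all genes tested did. GC and HRG are among the 6, with at most 6 and 4 reads in any T348I sample. The low-count filter kept them only through their WT samples, which favoured their being lower.

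**Figure D2:**
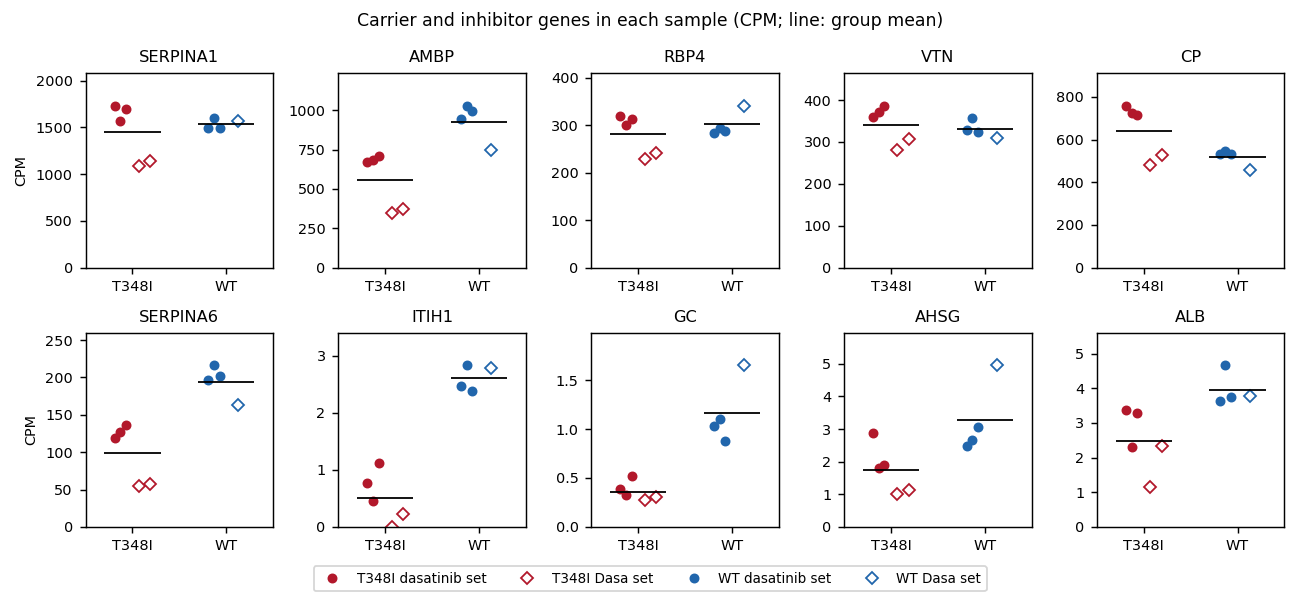
CPM of 10 carrier and inhibitor genes in each sample, T348I left of WT, filled circles for the dasatinib set and open diamonds for the Dasa set, with a line at each group's mean. AMBP, SERPINA6, ITIH1, GC and ALB have all T348I samples below all WT samples, while SERPINA1 and RBP4 have T348I diamonds below and circles mostly above WT.

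Of the fibrinogen genes, FGB and FGG fell by small amounts and FGA did not pass. The chains A, B and G assemble in pairs into fibrinogen, and their genes lie side by side, FGB at chr4:154562956-154571086, plus strand, FGA at chr4:154583126-154590766, minus strand and FGG at chr4:154604134-154612967, minus strand. FGA had 2572, 2481, 2570.0, 1808 and 1975 CPM in T348I samples, against 2479, 2515, 2437 and 2042 CPM in WT samples. The values overlapped, and in each set T348I lay close to WT, with a fold of -0.01 ± 0.0445 (SE, edgeR adjusted p = 0.895). FGB had 1674, 1608, 1662, 1040.4 and 1133 CPM in T348I samples, against 1682, 1748, 1682 and 1654 CPM in WT samples. T348I lay just below WT in the dasatinib set, and the T348I samples of the Dasa set were the lowest of all. FGB fell, with a fold of -0.22 ± 0.0703 (SE, edgeR adjusted p = 0.0147), but without WT Dasa replicate 1 the fold was -0.0422, without T348I Dasa replicate 1 it was -0.16, and neither was called. FGG had 1629.7, 1649, 1671, 1131 and 1158 CPM in T348I samples, against 1778, 1845, 1810.2 and 1580.1 CPM in WT samples. Only the WT Dasa sample lay among the T348I values, and FGG fell, with a fold of -0.24 ± 0.051 (SE, edgeR adjusted p = 0.00085), or of -0.13 without WT Dasa replicate 1. The FGA and FGB windows printed above each hold a C/EBP match, whose part in these folds was not tested.

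Of the proteases of the cascade, F12, F11, F7 and F10 fell, while F2 did not pass and F9 had no read in any sample. F12 encodes factor XII, which starts the contact pathway (chr5:177402140-177409576, minus strand). F12 had 9.44, 8.82, 8.63, 6.56 and 6.33 CPM in T348I samples, against 11.8, 13.5, 14.9 and 28.1 CPM in WT samples. All T348I samples lay below all WT samples, and the WT Dasa sample was the highest by far. F12 fell, with a fold of -1.16 ± 0.186 (SE, edgeR adjusted p = 4.5e-05), and of -0.58 without WT Dasa replicate 1. F11 encodes factor XI, the next protease (chr4:186265945-186288806, plus strand). It had 11.5, 8.95, 9.58, 4.87 and 4.97 CPM in T348I samples, against 16.3, 18.2, 17.6 and 17.2 CPM in WT samples, with no overlap, and fell, with a fold of -1.09 ± 0.131 (SE, edgeR adjusted p = 1.34e-06). F7 encodes factor VII, the partner of tissue factor (chr13:113105788-113120681, plus strand). F7 had 4.14, 4.18, 4.84, 4.74 and 6.4 CPM in T348I samples, against 8.24, 6.96, 6.86 and 13.8 CPM in WT samples. The highest T348I value was below the lowest WT value, and F7 fell, with a fold of -0.98 ± 0.131 (SE, edgeR adjusted p = 4.94e-06). F10 encodes factor X, where the pathways meet (chr13:113122814-113149529, plus strand). It had 20.7, 26.5, 24.6, 12.5 and 13 CPM in T348I samples, against 43, 41.9, 41.8 and 33.3 CPM in WT samples. The groups lay apart in both sets, and F10 fell, with a fold of -0.97 ± 0.0852 (SE, edgeR adjusted p = 1.74e-08).

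KNG1 encodes kininogen, the cofactor of the contact pathway and the source of bradykinin. It had 10.1, 6.89, 7.86, 7.44 and 10.7 CPM in T348I samples, against 12.8, 12.6, 13 and 22.8 CPM in WT samples, without overlap, and fell, with a fold of -0.92 ± 0.13 (SE, edgeR adjusted p = 9.69e-06). F2 encodes prothrombin (chr11:46719180-46739506, plus strand). F2 had 27.1, 23.4, 27.5, 18.4 and 20.7 CPM in T348I samples, against 24.6, 23.3, 23.3 and 28.2 CPM in WT samples. Values overlapped, and F2 did not pass over both sets, at -0.08 ± 0.0938 (SE, edgeR adjusted p = 0.517). F5, the cofactor of factor X, had 0.578, 0.515, 0.863, 4.06 and 3.16 CPM in T348I samples, against 1.51, 0.824, 0.883 and 6.32 CPM in WT samples. The larger contrast was between sets, with all Dasa samples above all dasatinib samples, and F5 was lower in T348I, with a fold of -0.79 ± 0.21 (SE, edgeR adjusted p = 0.00501), a call that was lost without WT Dasa replicate 1. Together 5 of 12 clotting genes had every T348I sample below every WT sample, against the 8.80% of all genes.

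The anticoagulant pair of protein C and protein S moved in opposite directions. PROC encodes protein C, which inactivates factors V and VIII once thrombin has activated it (chr2:127418427-127429246, plus strand). PROC had 1.35, 1.09, 1.55, 0.812 and 1.28 CPM in T348I samples, against 1.92, 1.47, 2.51 and 2.48 CPM in WT samples. WT dasatinib replicate 2 lay among the T348I values, PROC fell, with a fold of -0.83 ± 0.235 (SE, edgeR adjusted p = 0.00787), and the call was lost without WT Dasa replicate 1. PROS1 encodes protein S, the cofactor of protein C, which many cell types make. PROS1 had 97, 96.6, 96, 87.5 and 93.5 CPM in T348I samples, against 81.6, 84.8, 76.5 and 80.2 CPM in WT samples. It was the only one of the 34 genes with all T348I samples above all WT samples, where 9.84% of all genes tested had this, and it rose, with a fold of 0.23 ± 0.0419 (SE, edgeR adjusted p = 0.000165).

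**Figure D3:**
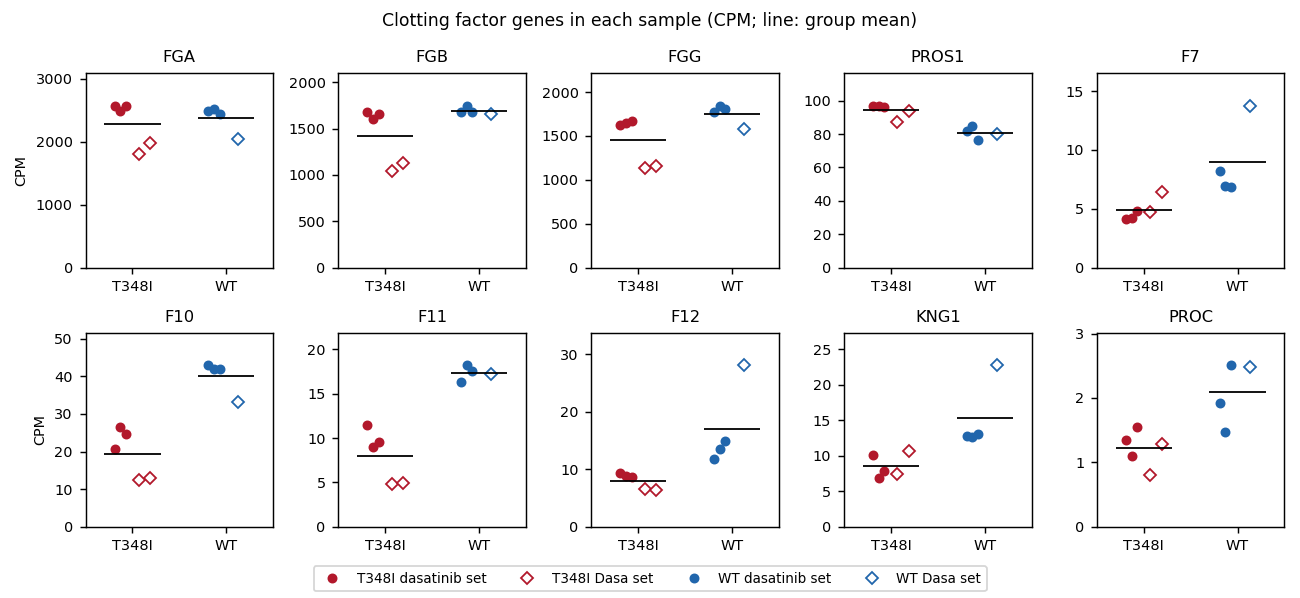
CPM of 10 clotting genes in each sample, T348I left of WT, filled circles for the dasatinib set and open diamonds for the Dasa set, with a line at each group's mean. F7, F10, F11, F12 and KNG1 have all T348I samples below all WT samples, PROS1 has them above, and FGA overlaps.

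Complement genes C3, CLU and C1R rose. C3 encodes the protein on which all complement routes converge (chr19:6677704-6730562, minus strand). C3 had 929, 854, 909, 1050.5 and 1180.4 CPM in T348I samples, against 641, 676, 656 and 1048 CPM in WT samples. In the dasatinib set every T348I sample was above every WT sample, and in the Dasa set the WT sample was as high as T348I replicate 1. C3 rose, with a fold of 0.33 ± 0.0569 (SE, edgeR adjusted p = 8.29e-05). CLU encodes clusterin, a chaperone that also inhibits the terminal complement complex. It had 257, 269, 284, 327 and 324 CPM in T348I samples, against 214, 229, 222 and 294 CPM in WT samples. CLU rose, with a fold of 0.24 ± 0.0404 (SE, edgeR adjusted p = 6.96e-05), and within each set the T348I values lay above WT. C1R encodes the protease C1r, which activates C1s. C1R had 4.14, 4.12, 4.66, 2.03 and 2.71 CPM in T348I samples, against 2.75, 2.75, 3.6 and 1.96 CPM in WT samples, on 30 to 64 reads in each T348I sample and 26 to 53 in each WT sample. C1R rose, with a fold of 0.44 ± 0.159 (SE, edgeR adjusted p = 0.0321), a call that was lost, at 0.37 to 0.46, without any 1 of T348I dasatinib replicates 2 and 3, T348I Dasa replicate 2, and WT dasatinib replicates 1 and 2.

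C5, C1S and CFI did not pass over both sets. C5 encodes the precursor of the anaphylatoxin C5a (chr9:120952335-121050276, minus strand). C5 had 165, 173, 165, 127 and 131 CPM in T348I samples, against 161, 153, 148 and 171 CPM in WT samples. T348I was above WT in the dasatinib set and below it in the Dasa set, and the overall fold was -0.04 ± 0.0665 (SE, edgeR adjusted p = 0.636). C1S, the C1s protease, had 14.7, 13.3, 15, 10.8 and 10.8 CPM in T348I samples, against 12.9, 12.8, 15.4 and 16.9 CPM in WT samples. T348I was lower in the Dasa set and overlapped WT in the dasatinib set, and the fold was -0.17 ± 0.109 (SE, edgeR adjusted p = 0.226). CFI, the protease factor I that inactivates C3b, had 1.99 to 4.06 CPM in T348I samples, against 1.37 to 4.89 CPM in WT samples, with a fold of 0.16 ± 0.196 (SE, edgeR adjusted p = 0.54). All 6 tested complement genes overlapped between the groups. Overlap was common among all genes tested, where 9.84% had every T348I sample above every WT sample and 8.80% below.

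**Figure D4:**
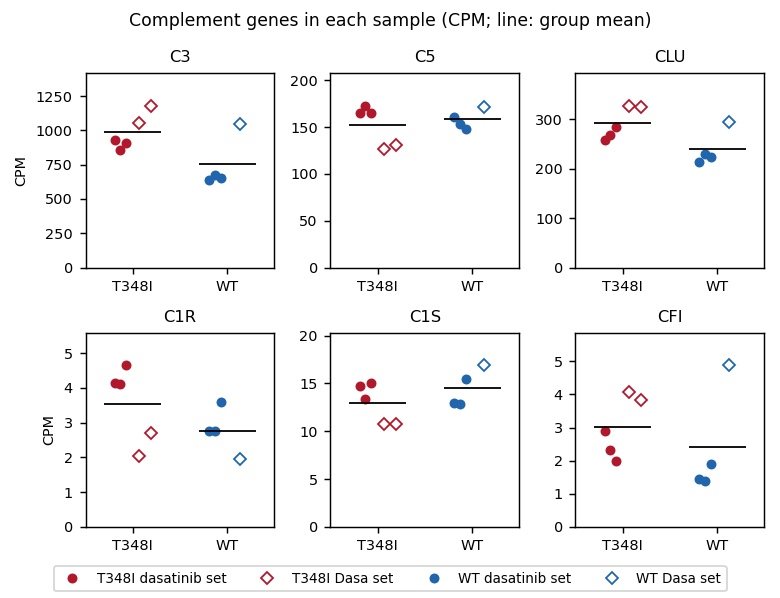
CPM of the 6 tested complement genes in each sample, T348I left of WT, filled circles for the dasatinib set and open diamonds for the Dasa set, with a line at each group's mean. C3 and CLU are higher in T348I circles than in WT circles, while the WT diamond of C3 stands at 1048 CPM, near the T348I diamonds.

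By name set, folds differed in size, and for some genes in sign. Of the 34, 11 had folds of opposite sign in the 2 sets. How many of all genes did so was not counted, so the 11 cannot be read as a trait of these genes. Some of these folds were small in both sets, such as those of FGA, at 0.04 in the dasatinib set and -0.11 in the Dasa set. Within the dasatinib set, 10 of the 34 genes were called higher, where 16.7% of all genes were, and 11 lower, where 16.4% were. The 10 were CP, RBP4, VTN, ITIH2, SERPINA1, PROS1, C3, C5, C1R and CLU. The 11 were AMBP, SERPINA6, GC, HRG, ITIH1, FGG, F7, F10, F11, F12 and KNG1. By role, 5 carriers and inhibitors were higher and 5 lower, 1 clotting gene was higher and 6 lower, and 4 complement genes were higher and none lower, also none at an unadjusted p under 0.05. The median log2 fold of the 34 was -0.61 in the Dasa set and -0.04 in the dasatinib set. Within the Dasa set, 3 were called higher, where 18.1% of all genes were, and 22 lower, where 18.0% were. CP, PROS1 and CLU were higher, and 10 carriers and inhibitors, 10 clotting genes and 2 complement genes (C5 and C1S) were lower. The same 11 genes called lower in the dasatinib set were lower in the Dasa set. GC and HRG, among the lower carriers and inhibitors of each set, passed the low-count filter only through their WT samples, which favoured their being lower. Without T348I Dasa replicate 2 none was called higher in the Dasa set, nor with upper quartile scaling, without mitochondrial transcripts or with no filter. The Dasa values rest on 2 T348I samples and a lone WT sample, assumed to vary like the others.

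Between the sets at the same group, 6 of the 34 genes were higher in the Dasa set and 15 lower, where 29.6% and 28.9% of all genes were.

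The difference in fold between the sets was tested itself, as the log2 fold in the Dasa set minus that in the dasatinib set. It was negative in 33 of 34 genes, and 19 were called, all negative, where 3.84% of all genes were called negative and 2.99% positive. SERPINA5 was the exception in sign, at -0.75 over both sets and 0.18 ± 0.777 (SE, edgeR adjusted p = 0.935) for the difference. F12 differed most among the well-counted genes: its fold was -2.12 in the Dasa set and -0.58 in the dasatinib set, a difference of -1.54 ± 0.174 (SE, edgeR adjusted p = 4.81e-08). SERPINA6 fell in both sets, with folds of -1.54 in the Dasa set and -0.68 in the dasatinib set, and a difference of -0.86 ± 0.0825 (SE, edgeR adjusted p = 1e-09). For 3 genes the call itself turned, though how many of all genes did so was not counted. SERPINA1 was lower in T348I in the Dasa set at -0.49 and higher in the dasatinib set at 0.12. RBP4 stood at -0.54 in the Dasa set and 0.11 in the dasatinib set, and C5 at -0.41 in the Dasa set and 0.12 in the dasatinib set. The differences were -0.62 ± 0.0691 (SE, edgeR adjusted p = 3.96e-08) for SERPINA1, -0.64 ± 0.0644 (SE, edgeR adjusted p = 2.93e-09) for RBP4 and -0.53 ± 0.0704 (SE, edgeR adjusted p = 8.89e-07) for C5. The sets share no sample, every Dasa fold uses the same lone WT sample, and the sets also differ in mitochondrial share and in YES1, whose part in these differences was not tested.

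**Figure D5:**
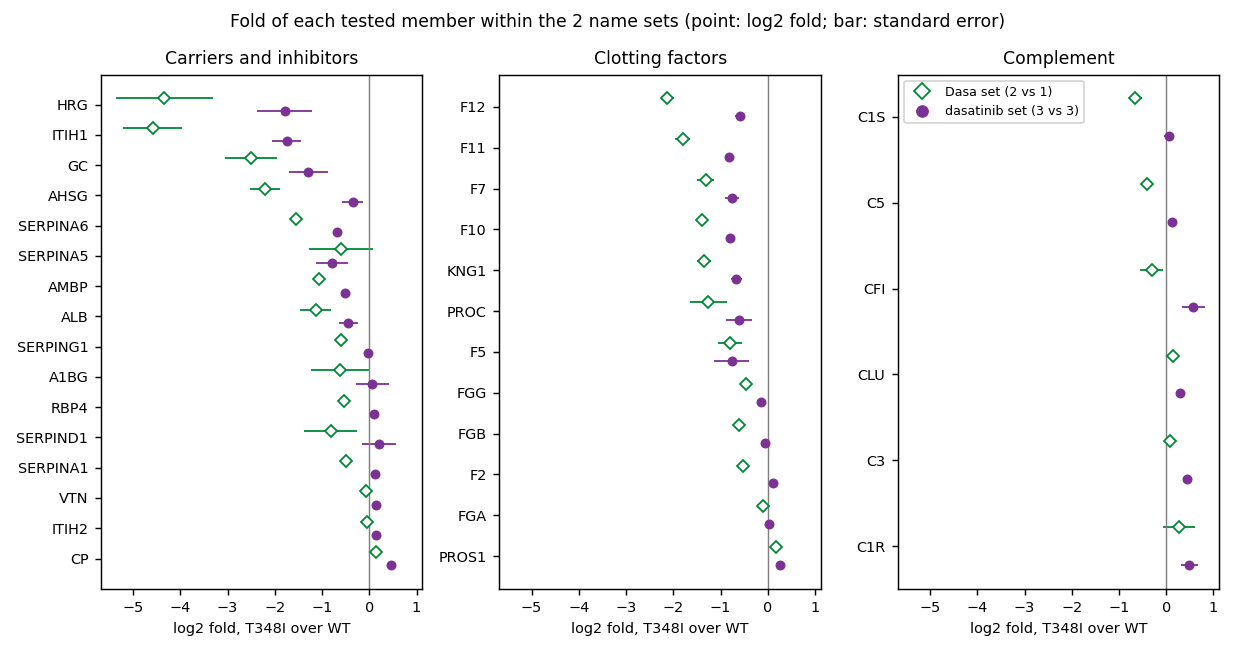
Log2 fold of T348I over WT for each tested member within the Dasa set (open diamonds) and within the dasatinib set (filled circles), with standard errors, grouped into carriers and inhibitors, clotting and complement genes. The Dasa fold lies below the dasatinib fold for 33 of 34 genes, and SERPINA1, RBP4 and C5 are below 0 in the Dasa set and above it in the dasatinib set.

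The summed level shows the same split without a test. The 43 genes summed to 11672, 11284 and 11709 CPM in T348I samples of the dasatinib set, against 11234, 11703 and 11289 CPM in its WT samples. In the Dasa set they summed to 8291 and 8906 CPM in T348I samples, against 10869 CPM in the WT sample. The sums are carried by few genes, since fibrinogen alone makes up most of the clotting sum. Clotting genes summed to 5915 to 6085 CPM in T348I and 6127 to 6312 CPM in WT samples of the dasatinib set, and in the Dasa set to 4126 and 4426 CPM in T348I samples, against 5508 CPM in the WT sample. Complement genes summed to 1316 to 1381 CPM in T348I and 1033 to 1076 CPM in WT samples of the dasatinib set, and in the Dasa set to 1521 and 1653 CPM in T348I samples, against 1538 CPM in the WT sample.

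The remaining 9 members were not tested, since their counts were too low for the filter. F9 (factor IX) and C9 (the pore-forming complement component) had no read in any sample, which allows up to 0.0458 CPM in T348I and 0.0561 CPM in WT samples (3 reads over each group). TTR, the carrier of thyroxine, had 2 reads over the T348I samples and 12 over the WT samples, a CPM ratio of 0.136 (95% exact interval 0.0148 to 0.611). SERPINC1 (antithrombin) had 5 reads in T348I and 7 in WT samples, a ratio of 0.583 (0.146 to 2.13). ITIH3 had 17 reads in T348I and 17 in WT samples (0.816, 0.392 to 1.70), and CFB, complement factor B, 31 in T348I and 20 in WT samples (1.27, 0.698 to 2.34), and both intervals include equality. ITIH4 had 3 reads in each group, SERPINA3 2 reads in T348I samples and none in WT samples, and FETUB no read in T348I samples and 1 in WT samples.

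Other genes of these pathways were counted from lists beyond the 43. Of all genes tested, 20.0% were called higher and 20.7% lower. Of 18 further plasma carriers and inhibitors, 12 were tested, 9 were called lower and 2 higher. TF (transferrin) averaged 374 ± 52.5 CPM in T348I samples and 639 ± 28.4 CPM in WT samples (SD, n = 5 and 4), with a fold of -0.76 ± 0.0602 (SE, edgeR adjusted p = 3.94e-09), and SERPINF2, the inhibitor of plasmin, 4.57 ± 2.35 CPM in T348I samples and 19.1 ± 0.314 CPM in WT samples, with a fold of -2.07 ± 0.168 (SE, edgeR adjusted p = 5.29e-09). AGT (angiotensinogen) and LRG1, an acute phase glycoprotein, were the 2 higher ones, at 0.56 ± 0.0435 (SE, edgeR adjusted p = 2.44e-09) and 0.87 ± 0.0548 (SE, edgeR adjusted p = 1.09e-10). Of 16 further clotting genes, 10 were tested, 3 were called higher and 4 lower, where 20.0% and 20.7% of all genes were. F3, which encodes tissue factor, the partner of factor VII, ranged over 27.7 to 59.6 CPM in T348I samples, against 13.1 to 30.3 CPM in WT samples, and rose, with a fold of 1.0 ± 0.0619 (SE, edgeR adjusted p = 8.32e-11) once set was in the model. TFPI, the inhibitor of that pathway, rose, with a fold of 0.29 ± 0.0398 (SE, edgeR adjusted p = 6.55e-06), while CPB2 and F13B fell, with folds of -0.96 and -1.27 (edgeR adjusted p = 1.33e-05 and 0.000267).

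Of 23 further complement genes, 8 were tested, 3 were called higher and none lower by edgeR, also none at an unadjusted p under 0.05. Of all genes tested, 20.0% were called higher and 20.7% lower. CD55 and CD59, which restrain complement on the cell surface, were among those higher. CD46, which also does so, was not called, with a fold of -0.07 ± 0.0391 (SE, edgeR adjusted p = 0.144). CD55 had 3.86 to 7.03 CPM in T348I samples, against 1.47 to 2.38 CPM in WT samples, with a fold of 1.62 ± 0.169 (SE, edgeR adjusted p = 1.87e-07), and CD59 had a fold of 0.21 ± 0.0767 (SE, edgeR adjusted p = 0.0346). The CD59 fold differed between the sets by 0.65 ± 0.0723 (SE, edgeR adjusted p = 2.96e-08): it was 0.67 in the Dasa set, where the lone WT sample stood at 92 CPM against 121 to 126 CPM in the other WT samples, and 0.02 in the dasatinib set (edgeR adjusted p = 0.804). Of 14 factors known to drive liver genes, 13 were tested, 3 were called higher and 7 lower, against the same 20.0% and 20.7% of all genes. STAT3 and CEBPB rose, with folds of 0.93 ± 0.0374 (SE, edgeR adjusted p = 8.4e-14) and 0.68 ± 0.0403 (SE, edgeR adjusted p = 4.66e-11), and CEBPA and ONECUT1 fell, with folds of -0.73 ± 0.0627 (SE, edgeR adjusted p = 1.28e-08) and -0.56 ± 0.0671 (SE, edgeR adjusted p = 1.2e-06). HNF4A, whose motif CAAAGTCCA stands in the AHSG and F10 windows, ranged over 121 to 159 CPM in T348I samples, against 159 to 177 CPM in WT samples, with a fold of -0.25 ± 0.0581 (SE, edgeR adjusted p = 0.00185). The part of these factors in the members' changes was not tested.

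Members that lie within 2000000 bases of each other did not always share a call. F7 and F10 are adjacent on chromosome 13, at 113105788 to 113120681 and 113122814 to 113149529, and fell, with folds of -0.98 and -0.97. On chromosome 14 SERPINA6 and SERPINA5 fell, with folds of -0.94 and -0.75, and SERPINA1 between them, at 94376747 to 94390693, stood at -0.07. The fibrinogen genes on chromosome 4 stood at -0.22 for FGB, -0.01 for FGA and -0.24 for FGG. GC and ALB, also on chromosome 4, fell, with folds of -1.76 and -0.64, and AHSG and HRG on chromosome 3 with folds of -0.97 and -2.48.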

How the data were processed

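RNA was measured in 9 samples of PLC/PRF/5 cells by stranded polyA RNA sequencing, per the labels' protocols. The authors deposited unnormalized counts, 1 table per sample. The submitters' processing notes name STAR 2.5.1b, Trimmomatic 0.35, CASAVA 1.8.2 and the build GRCh38. The annotation release was not given in the sources used here, nor were filters. Tables follow STAR's layout, with counts for either strand and for each. Column 4, the sense strand of such a kit, was used, and the opposite strand held 5.48% to 5.91% as many gene reads. Rows without a gene name, 22.2% to 29.8% of reads, were dropped. Multimapped reads are among them, so genes with near-identical copies read low.

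Of the 58219 identifiers, 57392 matched a symbol. Coordinates are from GENCODE release 29 on GRCh38 and are printed for members with the same version number, 37 of 43. Lengths are merged exons of that release.

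The test of the counts was that of edgeR 4.0.16 in R 4.3.3 (filterByExpr, TMM, quasi-likelihood F-test, model of set and group, Benjamini-Hochberg adjustment over 15495 genes, two-sided). Standard errors came from the fold and the F statistic. Folds within each set and their difference came from a model of the 4 cell means, on the same genes. Alternatives were DESeq2 1.42.0, other scalings, filters and terms, counts of both strands, and leaving out each sample in turn. Tested on simulated counts for this comparison, the fit recovered 32, 44, 46 and 49 of 50 genes changed 1.2, 1.5, 2 and 4-fold, among 15264 genes tested. Exact 95% intervals on read ratios cover counting error only. No sample repeated another: between samples of a group and set, chi-square per gene was 1.49 to 3.09, where sampling noise gives about 1.

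The members and lists were chosen with earlier results of these data known. Values in every sample were given for members called at 1.5-fold or more, the 3 with the highest CPM per kb in each role, and those whose folds differed between the sets with opposite signs. CP, SERPING1, PROS1 and C1R were added after their values were seen. Of each list beyond the members, those with the smallest adjusted p were named, and HNF4A was named after its values were seen. A few listed genes are not reported here.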

Additional observations from a re-analysis of the deposited data

Results flagged for a closer look

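Of the 34 tested genes, 19 had a fold that differed between the name sets by the edgeR test of the difference. Each is given as the log2 fold in the Dasa set minus that in the dasatinib set. Among carriers and inhibitors these were -0.53 for AMBP, -0.64 for RBP4, -0.23 for VTN, -0.31 for CP, -0.62 for SERPINA1, -0.86 for SERPINA6, -0.57 for SERPING1, -1.85 for AHSG and -2.83 for ITIH1. Among clotting genes they were -0.56 for FGB, -0.33 for FGG, -0.65 for F2, -0.58 for F10, -0.99 for F11, -1.54 for F12 and -0.68 for KNG1. Among complement genes they were -0.36 for C3, -0.53 for C5 and -0.70 for C1S.

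A sample stood apart from the rest of its group in 8 of 68 groups checked, by Dixon's criterion. Chance alone meets it in about 1 of 20 where a group is 1 population. Each group here holds samples of both name sets, so the 8 cannot be set against that rate. In 7 of the 8 it was WT Dasa replicate 1: CP at 457 CPM, FGA at 2042 CPM and F10 at 33.3 CPM were lower than the WT samples of the dasatinib set, and F5 at 6.32 CPM, KNG1 at 22.8 CPM, C3 at 1048 CPM and CFI at 4.89 CPM were higher. The remaining one was ALB at 4.67 CPM in WT dasatinib replicate 2. WT Dasa replicate 1 is the lone WT sample of its name set, so among WT samples the sample and the set cannot be told apart. T348I means shifted the same way between sets, though little for KNG1. In the dasatinib and Dasa sets they were 734 and 505 CPM for CP, 2541 and 1892 for FGA and 23.9 and 12.7 for F10. For F5 they were 0.652 and 3.61 CPM, for KNG1 8.29 and 9.07, for C3 898 and 1115 and for CFI 2.40 and 3.95. The part of the set in these flags was not tested.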

How the results depend on the processing

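Of 643 alternative folds of the tested members over 19 settings, 566 kept their direction and side of the threshold. Of the 34 tested members, 11 did so in every setting. Counts of called genes were judged apart, as kept when within 1.5 times. The cause was not tested for any of the exceptions below. With no term for set, 1238 of all genes were higher and 1085 lower, with 1 member higher and 9 lower, 4 carriers and inhibitors and 5 clotting genes lower, and 0 carriers and inhibitors and 0 complement genes higher. At a minimum of 1.5-fold, 805 genes were called higher and 695 lower, and 0 carriers and inhibitors, 0 clotting genes, 0 complement genes and so 0 members higher. In the dasatinib set alone, 10 members were called higher and 10 lower, with 5 carriers and inhibitors higher and 4 lower. DESeq2 called 4 members higher and 15 lower, with SERPINA5, SERPING1, FGB and C1R no longer called. Leaving out 1 sample at a time, members called higher numbered 4 to 10 and members called lower 11 to 18, carriers and inhibitors lower 5 to 9 and higher 1 to 5, and the extremes of 10, 11, 5 and 5 were those without WT Dasa replicate 1. Members called higher within the Dasa set numbered 0 with upper quartile scaling, 0 without mitochondrial transcripts, 0 with no filter, and 0 to 3 with 1 sample left out.

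The folds that changed sign belong to members not called over both sets. In the dasatinib set alone they were 0.11 for RBP4, 0.0698 for A1BG, 0.13 for SERPINA1, 0.21 for SERPIND1, 0.0435 for FGA, 0.13 for F2, 0.13 for C5 and 0.0559 for C1S. With 1 sample left out they ranged from -0.14 to 0.11 for RBP4, -0.37 to 0.0689 for A1BG, -0.11 to 0.13 for SERPINA1, -0.35 to 0.21 for SERPIND1, -0.0240 to 0.0428 for FGA, -0.14 to 0.12 for F2, -0.0901 to 0.13 for C5 and -0.24 to 0.0548 for C1S.

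Same-numbered T348I and WT samples of the dasatinib set are not known to be paired. The correlations of their deviations over genes were 0.11, 0.00434 and 0.06, and those of differently numbered samples ranged from -0.088 to 0.042. With 3 samples a group, these values cannot decide whether the samples were paired. With the replicate block, 2702 genes were called higher and 2743 lower, and 4 members were called higher and 15 lower. AHSG, SERPING1, FGB and C1R were then no longer called.

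Depth limits the genes near 1 CPM. ITIH1, HRG, GC, SERPINA5, A1BG and SERPIND1 rest on few reads a sample.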
